A study of Homo sapiens with 8 samples.

Results

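The 8 genes described here are used to recognise astrocytes, the star-shaped glia of the brain: GFAP, AQP4, S100B, ALDH1L1, GJA1, SLC1A2, AGT and SPARCL1. They were taken by name from a matrix of 60286 genes, and all 8 had a row in it. The matrix held 43693 cells of neural cultures grown in 2-D or 3-D, and made into barcoded RNA-seq libraries by split-pool barcoding. All cells derive from H1, a long-established line of human embryonic stem cells. The 8 deposited samples are sublibraries, that is, portions of the same pool of cells, and their labels list dopamine, cocaine, morphine and untreated together without a dose or a time. Culture and treatment were therefore read from tags in the cell names, 46 in all, which fell into 17 groups.

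The 4 arrangements 2DMono, 3DMono, 2DCocu and 3DFusi carried treatment tags: 2DMono (6 tags) and 3DMono (6 tags), each with AcDop, AcMor and Vehic, and 2DCocu (12 tags) and 3DFusi (10 tags), each with AcCoc, AcMor and Vehic. The other arrangements, 2DProto2Fjo, 2DProto3Wu, 2DProto4Nic, 3DProto1For and 3DProto2Xia, had 2 or 3 tags each and no treatment. The labels do not define these abbreviations, so they are kept as written, and whether tags of a group were separate cultures is not stated. All tags come from the same line, so n counts tags and p-values measure the spread between tags, which may be technical. Levels are CPM, the summed counts of a gene in a tag scaled to the same total for every tag.

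Astrocytes arise from radial glia late in brain development, when the STAT3 pathway and nuclear factor I (NFI) transcription factors switch on glial genes that neurons keep silent. GFAP builds the intermediate filaments of astrocytes and is also made by human radial glia. AQP4 is the water channel of astrocyte endfeet, S100B a calcium-binding protein, and ALDH1L1 a cytosolic enzyme of folate metabolism. GJA1 forms the gap junctions that couple astrocytes and also couples many cells outside the brain, and SLC1A2 clears glutamate from synapses. AGT is the precursor of the angiotensin peptides, and SPARCL1 is a secreted matrix protein that promotes synapse formation. Several of these genes are also active in other cells: S100B in cartilage, AGT in liver and connective tissue cells, SPARCL1 in vessels and SLC1A2 in some neurons.

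In GRCh38.p14, GFAP lies on chromosome 17 (44903159 to 44915500), AQP4 on chromosome 18 (26852038 to 26865803), S100B on chromosome 21 (46598604 to 46605082) and ALDH1L1 on chromosome 3 (126103570 to 126197945). GJA1 lies on chromosome 6 (121435646 to 121449727), SLC1A2 on chromosome 11 (35251205 to 35420507), AGT on chromosome 1 (230702523 to 230745583) and SPARCL1 on chromosome 4 (87473335 to 87529376). RefSeq promoter windows were found for 5 of the 8 genes (AQP4, ALDH1L1, GJA1, AGT and SPARCL1). The 250 bases before a RefSeq start are shown for ALDH1L1, GJA1 and SPARCL1, the 3 of these whose share of cells passed the test of 3DMono against 2DMono described further on. Capitals mark matches, on either strand, to the NFI core TTGGC (or GCCAA) in ALDH1L1 and SPARCL1 and to the AP-1 motif TGAGTCA (or TGACTCA) in GJA1.
ALDH1L1, chr3:126180587-126180836, minus strand: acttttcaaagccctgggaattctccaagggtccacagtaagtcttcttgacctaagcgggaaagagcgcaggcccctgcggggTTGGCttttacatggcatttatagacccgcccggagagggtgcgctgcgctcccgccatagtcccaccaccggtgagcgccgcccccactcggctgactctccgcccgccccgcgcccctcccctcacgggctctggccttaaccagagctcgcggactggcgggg
GJA1, chr6:121435396-121435645, plus strand: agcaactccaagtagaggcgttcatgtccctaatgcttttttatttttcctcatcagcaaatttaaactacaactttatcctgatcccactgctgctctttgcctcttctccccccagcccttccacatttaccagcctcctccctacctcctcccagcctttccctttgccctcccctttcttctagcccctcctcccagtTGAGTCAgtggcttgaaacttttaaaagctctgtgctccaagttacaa
SPARCL1, chr4:87529377-87529626, minus strand: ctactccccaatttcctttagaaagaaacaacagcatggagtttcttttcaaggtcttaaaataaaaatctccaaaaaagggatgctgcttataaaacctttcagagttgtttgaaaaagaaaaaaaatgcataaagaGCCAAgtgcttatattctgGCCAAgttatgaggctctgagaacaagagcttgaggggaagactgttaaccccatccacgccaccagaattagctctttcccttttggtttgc

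ALDH1L1 has 2 RefSeq windows, both before starts inside the annotated gene. The one shown was chosen for its NFI core, which begins 166 bases before the start, and the other held 0 matches to the NFI, AP-1 and STAT motifs. The AP-1 match of GJA1 begins 48 bases before the start, and the NFI cores of SPARCL1 begin 112 and 93 bases before its start. Of 35116 RefSeq windows of this length, 40.8% held the NFI core and 4.2% the AP-1 motif, and 6.57% held the STAT motif TTCNNNGAA, which was absent from the 3 windows shown but present in 1 AQP4 window and in the AGT window, the latter also with an NFI core. A match is a string of letters and no evidence of binding, and the motifs were chosen after the sequences had been looked at.

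The counts summed to 793413159 over all cells, with a median of 12776 per cell (3375 to 511102). Tag totals lay between 4479874 and 58777178 counts in the 4 treated arrangements, from 317 to 1959 cells. Barcode combinations shared by more than 1 sublibrary numbered 2393, and 0 cell names occurred more than once. Summed mesenchymal markers set some tags apart from their label: 3DProto1For 3 (63.3 CPM) resembled 3DProto2Xia 1 and 3 (27.4 and 38.9 CPM), and 3DProto2Xia 2 (1996 CPM) resembled 3DProto1For 1 and 2 (2240 and 3354 CPM). SPARCL1 followed the same split, at 8.58 CPM in 3DProto1For 3, 9.46 and 9.39 CPM in 3DProto2Xia 1 and 3, 114.9 CPM in 3DProto2Xia 2, and 47.7 and 115.7 CPM in 3DProto1For 1 and 2. These 6 tags enter no test.

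GFAP, the filament gene, and ALDH1L1, the folate enzyme, were high in the 2-D arrangements with treatment tags and low everywhere else. GFAP lay between 27.4 and 83.5 CPM in the 6 tags of 2DMono (median 47.3) and between 34.8 and 110.8 CPM in the 12 tags of 2DCocu (median 67.1). In 3DMono it lay between 2.36 and 3.29 CPM (median 2.82), and in 3DFusi between 1.12 and 9.13 CPM (median 4.68). Every 2DMono and 2DCocu tag was thus above every 3DMono and 3DFusi tag. The 2-D arrangements without treatment tags did not share the high level: mean GFAP was 4.86 CPM in 2DProto2Fjo, 2.49 CPM in 2DProto3Wu and 1.504 CPM in 2DProto4Nic, beside 5.07 CPM in 3DProto1For and 4.04 CPM in 3DProto2Xia.

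ALDH1L1 had its highest median in 2DCocu. It lay between 47.8 and 122.8 CPM in 2DCocu (median 74.9), between 10.7 and 14.5 CPM in 2DMono (median 13.01), between 0.428 and 1.23 CPM in 3DMono (median 0.747) and between 0.837 and 3.07 CPM in 3DFusi (median 1.67). In the 5 arrangements without treatment tags, ALDH1L1 means lay between 1.17 CPM (2DProto3Wu) and 1.73 CPM (2DProto2Fjo). ALDH1L1-AS2, the antisense neighbour that reads could be shared with, was at 2.76 ± 0.744 CPM (SD, n = 12) in 2DCocu; whether the counting used strand is not given in the sources used here.

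GJA1, the gap junction gene, had its own order. It lay between 50.6 and 120.8 CPM in 2DMono (median 94.4), between 20.9 and 37.0 CPM in 2DCocu (median 30.98), between 7.19 and 70.1 CPM in 3DFusi (median 36.8) and between 6.95 and 33.8 CPM in 3DMono (median 14.1). The 2DMono median was above that of 2DCocu, the reverse of ALDH1L1, and the 3DFusi range enclosed the 2DCocu range. Among the untreated arrangements GJA1 reached 56.7 ± 18.2 CPM (SD, n = 2) in 2DProto4Nic, where GFAP was at its lowest mean.

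SPARCL1, the secreted matrix protein, was at 76.3 ± 15.7 CPM in 2DMono (SD, n = 6), 35.0 ± 16.3 CPM in 3DMono (n = 6), 81.2 ± 14.2 CPM in 2DCocu (n = 12) and 70.9 ± 34.6 CPM in 3DFusi (n = 10). The 3DMono mean was the lowest, but its highest tag (63.8 CPM) reached into the 2DMono range, which began at 60.3 CPM. SLC1A2, the glutamate transporter, was at 249.8 ± 39.2, 256 ± 21.2, 180 ± 31.5 and 197 ± 63.1 CPM in the same order, with overlap between the 2-D and 3-D arrangement of each pair.

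AQP4, S100B and AGT had few counts. AQP4 lay between 0.287 and 2.78 CPM in 2DMono (median 0.812), between 0.0285 and 0.180 CPM in 3DMono (median 0.121), between 0.192 and 0.838 CPM in 2DCocu (median 0.584) and between 0.0123 and 1.04 CPM in 3DFusi (median 0.282). The tag 2DMono Vehic 1, also the deepest, held 163.4 of its counts. The antisense gene AQP4-AS1 was far above AQP4 in every treated arrangement, with means between 29.1 CPM (2DCocu) and 52.8 CPM (3DFusi). Whether antisense reads add to the AQP4 counts was not tested.

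S100B, the calcium-binding protein gene, lay between 2.86 and 5.35 CPM in 2DMono (median 3.60), between 0.507 and 3.29 CPM in 3DMono (median 1.53), between 1.46 and 4.01 CPM in 2DCocu (median 2.15) and between 0.223 and 13.5 CPM in 3DFusi (median 4.02). AGT, the angiotensin precursor, had medians of 1.85 CPM in 2DMono, 2.02 CPM in 3DMono and 2.39 CPM in 2DCocu, and in 3DFusi it ran from 1.23 to 13.5 CPM (median 3.92). Both genes thus varied most between tags of 3DFusi.

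**Figure D1:**
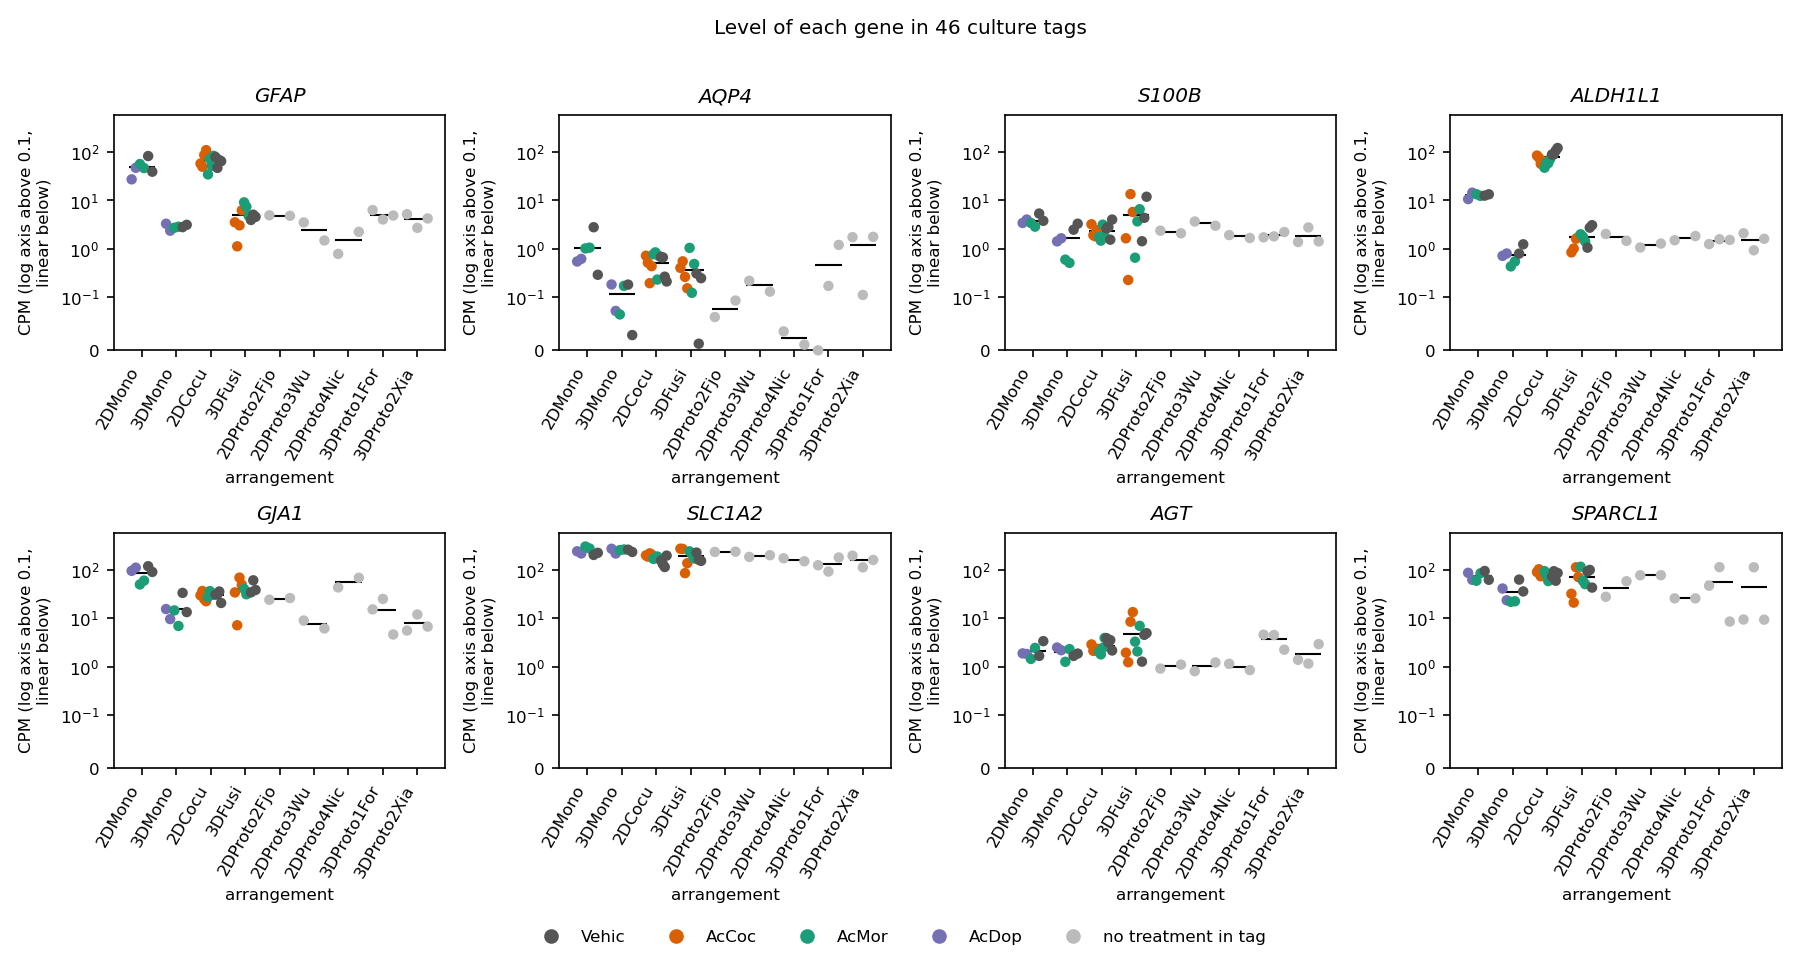
Level of each of the 8 genes in every tag (points coloured by treatment; CPM on an axis that is logarithmic above 0.1 and linear below) by arrangement, with the arrangement mean as a line. GFAP and ALDH1L1 sit high in 2DMono and 2DCocu, GFAP above 27 CPM in all 18 of those tags, while SLC1A2 overlaps between the 2-D and 3-D arrangement of each pair.

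The spread within 3DFusi followed the tag number, which the labels do not explain. In the 4 tags numbered 1 or 2, S100B lay between 0.223 and 1.64 CPM, and in the 6 tags numbered 3 or 4 between 3.68 and 13.5 CPM. AGT averaged 1.93 ± 0.960 CPM (SD, n = 4) in the former and 6.75 ± 3.97 CPM (SD, n = 6) in the latter. SLC1A2 went the other way, from 232 to 279 CPM in tags numbered 1 or 2 and from 86.7 to 216 CPM in tags numbered 3 or 4. The summed level of 8 mesenchymal markers (collagens, LUM, DCN and others) moved with the number too, 229.1 to 696 CPM against 1247 to 4374 CPM; its part in these values was not tested. Every treatment of 3DFusi held both kinds of tag. No test was run on this split, since it was made after the values were seen.

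The first comparison set the 3-D arrangement of each pair against its 2-D arrangement, with treatment kept equal. The labels do not say whether protocol or age changed along with the format, so these cannot be told apart. In 3DMono against 2DMono, GFAP, GJA1, S100B and SPARCL1 fell, 4 of the 6 genes that passed the filter on low counts in each format by itself. ALDH1L1 and AQP4 also fell, but they entered the test through 2DMono: the filter asked for 3 tags at 0.8195 CPM or more, which ALDH1L1 reached in 2 and AQP4 in 0 of the 6 3DMono tags. These 2 genes are therefore left out of the count. Of all 21862 genes tested, 38% passed the same threshold, an adjusted p under 0.05 in edgeR's quasi-likelihood test, with 20.4% as lower and 17.5% as higher. The median log2 fold change of the 6 was -1.51, against 0.03 over all genes tested.

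GFAP fell by 4.35 on the log2 scale (SE 0.234, adjusted p = 1.018e-08) and ALDH1L1 by 4.35 (SE 0.198, adjusted p = 1.753e-09). GJA1 fell by 2.68 (SE 0.28, adjusted p = 9.154e-06) and AQP4 by 3.53 (SE 0.566, adjusted p = 0.0002168). For GFAP and GJA1 no 3DMono tag reached the lowest 2DMono tag, which held for 8.42% of all genes tested; the same was seen for ALDH1L1 and AQP4. AQP4 rests on few counts, 0.286 to 4.57 per tag in 3DMono, and 163.4 of its 196.4 counts in 2DMono came from Vehic 1. S100B fell by 1.63 (SE 0.259, adjusted p = 0.0001953) and SPARCL1 by 1.39 (SE 0.215, adjusted p = 0.0002034), both with overlapping ranges. SLC1A2 (log2 fold change -0.14, SE 0.0856, adjusted p = 0.2138) and AGT (-0.27, SE 0.24, adjusted p = 0.4103) did not pass.

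The calls of GFAP, GJA1, S100B and SPARCL1 held when any 1 of the 12 tags was left out. With the Vehic tags alone, 2 against 2, GFAP and GJA1 passed and S100B (log2 fold change -0.99, adjusted p = 0.106) and SPARCL1 (-0.91, adjusted p = 0.1784) did not. In summed tags, fewer cells of a type and less RNA per cell cannot be told apart. Mesenchymal markers, all 8 with counts, summed to 580.9 to 1663 CPM in 2DMono and 161.2 to 574 CPM in 3DMono. Of the mesenchymal-like clusters described further on, however, cluster 3 made up 0.392% of 2DMono and 4.47% of 3DMono cells. The values were 1.45% and 0.0431% for cluster 20, and 0% and 0.273% for cluster 30. Radial glia or progenitor markers summed to 1001 to 1343 CPM in 2DMono and 1348 to 1847 CPM in 3DMono. The part of these cell types in the result was not tested.

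In 3DFusi against 2DCocu, GFAP and ALDH1L1 fell and no other of the 8 genes passed. AQP4 was too low for this comparison, so this is 2 of 7 tested, where 48.8% of all 22510 genes passed, 22.7% as lower and 26.1% as higher: the share among the 8 genes was no greater than over all genes. GFAP fell by 3.89 on the log2 scale (SE 0.249, adjusted p = 3.082e-11) and ALDH1L1 by 5.63 (SE 0.175, adjusted p = 9.728e-17), both without overlap between the 12 and the 10 tags, as in 3.41% of all genes tested. The median over the 7 was 0.07, against 0.04 over all genes.

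This fit treated the 3DFusi tags as independent, although S100B followed their number. It lay between 0.223 and 1.64 CPM in tags numbered 1 or 2 and between 3.68 and 13.5 CPM in tags numbered 3 or 4. The 2DCocu tags lay between 1.46 and 4.01 CPM, so the direction of the difference changed with the number. S100B was at 0.96 (SE 0.403, adjusted p = 0.05343), close to the threshold and on either side of it depending on the tags. It passed when any of 2DCocu AcMor 3, 2DCocu Vehic 4, 3DFusi AcCoc 1, AcCoc 2, AcMor 1 or Vehic 1 was left out, with adjusted p between 0.01979 and 0.04873. AGT (0.63, SE 0.328, adjusted p = 0.1135) passed without 3DFusi Vehic 1, at 0.79 (adjusted p = 0.03692), and GJA1 (0.33, SE 0.209, adjusted p = 0.1999) passed without 3DFusi AcCoc 2, at 0.43 (adjusted p = 0.01082). SLC1A2 (0.07, SE 0.173, adjusted p = 0.756) and SPARCL1 (-0.28, SE 0.219, adjusted p = 0.297) did not pass. The 8 GABAergic neuron markers all rose in the same comparison (median log2 fold change 2.83), a shift in another cell type whose part in these values was not tested.

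**Figure D2:**
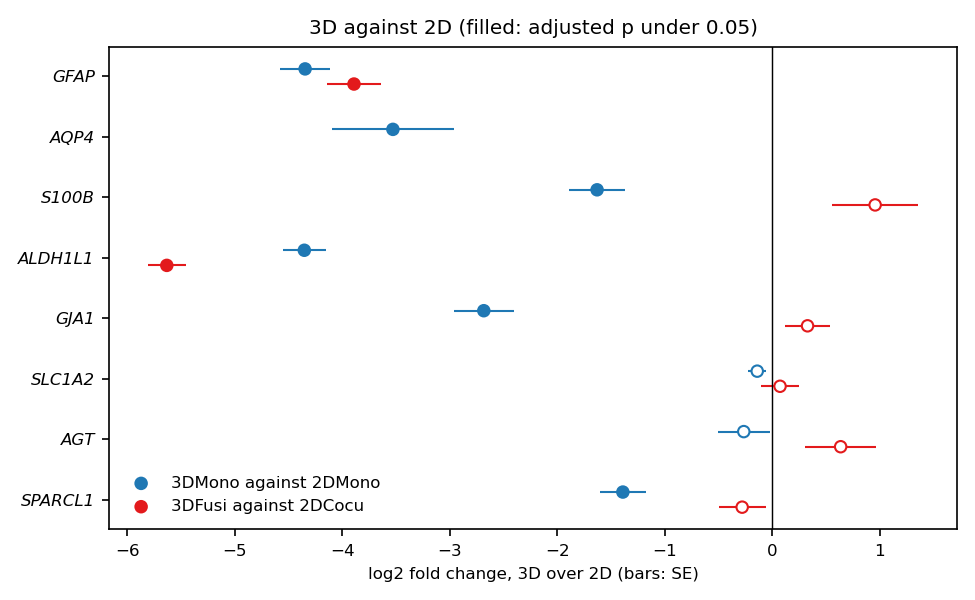
Log2 fold change of 3-D against 2-D for each gene with its standard error, in the Mono pair and in the pair of 3DFusi and 2DCocu; filled points passed an adjusted p of 0.05, and AQP4 was tested in the Mono pair alone. GFAP and ALDH1L1 lie far below 0 in both pairs, while GJA1 lies at -2.68 in the Mono pair and at 0.33 in the other.

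The difference between the 3-D against 2-D changes of the pairs was tested over the treatments that all 4 arrangements hold, Vehic and AcMor. Of the 3DMono Vehic and AcMor tags, ALDH1L1 reached the filter limit of 0.8158 CPM in Vehic 2 alone (1.23 CPM). It is therefore given as a value and not counted. GFAP, S100B, GJA1, SLC1A2, AGT and SPARCL1 passed the filter on low counts in each arrangement. Of these genes, GJA1 and S100B passed the test, where 6.68% of 24803 genes passed, 3.9% with a positive and 2.77% with a negative difference. GJA1 differed by 2.67 on the log2 scale (SE 0.456, adjusted p = 0.0003849), a fall in the Mono pair beside little change in the pair of 3DFusi and 2DCocu. That call held in all 22 fits that left out 1 tag and with Vehic tags alone.

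ALDH1L1 differed by -1.09 (SE 0.324, adjusted p = 0.03905), its fall being deeper in 3DFusi against 2DCocu. S100B, whose 3DFusi tags differed by number but were fitted as independent, differed by 2.61 (SE 0.783, adjusted p = 0.04085). AQP4, which entered this fit through 2DMono and is not counted, differed by 2.94 (SE 0.877, adjusted p = 0.03954). These 3 calls were fragile: with 1 tag left out, ALDH1L1 passed in 11 of 22 fits, AQP4 in 9 and S100B in 5. Without 2DMono Vehic 1, AQP4 differed by 1.29 (adjusted p = 0.6811). For SPARCL1 the difference was 1.30 (SE 0.439, adjusted p = 0.07345), and it passed without 3DFusi Vehic 4, at 1.42 (adjusted p = 0.04182). GFAP (0.90, SE 0.42, adjusted p = 0.2194), AGT (0.66, SE 0.622, adjusted p = 0.6149) and SLC1A2 (0.31, SE 0.327, adjusted p = 0.663) did not pass, so a difference in the GFAP fall between the pairs was not shown.

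Other astrocyte genes were mixed in direction. Of 24 listed, 22 were tested in 3DMono against 2DMono, where 6 rose and 8 fell, with a median of 0.01. Over all genes, 17.5% passed as higher and 20.4% as lower. Of the 8 among them that also served as markers to name clusters, 0 rose and 5 fell (median -0.87). CD44, a hyaluronan receptor, fell by 5.26 (adjusted p = 2.443e-09), from 170.9 ± 38.9 to 5.34 ± 2.26 CPM (SD, n = 6 each), and the small heat-shock protein CRYAB fell by 3.28. APOE and CLU, which carry lipids, fell by 1.51 and 1.38. The growth factor receptor FGFR3 rose by 2.11 (adjusted p = 0.0005717) and the glycolytic enzyme ALDOC by 1.86. The counts of this list and of the lists below include genes that passed the filter on low counts through 1 format alone. ALDOC is such a gene, with a 2DMono mean of 0.2465 CPM under the limit of 0.8195 CPM.

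In 3DFusi against 2DCocu, 9 of 22 rose and 6 fell (median 0.30), where 26.1% of all genes passed as higher and 22.7% as lower; the share that fell was near that of all genes. Of the 8 cluster markers, 2 rose and 2 fell there (median 0.19). CD44 fell by 2.55 (adjusted p = 2.52e-09), CRYAB by 1.23 and the endothelin receptor EDNRB by 1.32. SLCO1C1, a thyroid hormone transporter, rose by 1.63, the bicarbonate transporter SLC4A4 by 1.17 and ALDOC by 1.47. CD44 and CRYAB thus fell and ALDOC rose in both pairs, in the company of members that fell and members that did not pass. ALDOC entered this second test through 3DFusi, since its 2DCocu mean was 0.3225 CPM, under the limit of 0.8158 CPM.

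Genes that regulate the switch to glia were mixed. Of 17 tested in 3DMono against 2DMono, 2 rose and 7 fell (median -0.32), where 17.5% of all genes passed as higher and 20.4% as lower. The NFI factor NFIX fell by 1.91 (adjusted p = 6.205e-07), from 226.8 ± 27.0 to 69.7 ± 19.5 CPM, the Notch target HES1 by 1.83 and STAT3 by 0.95 (adjusted p = 6.494e-06). IL6ST, the shared receptor chain of gliogenic cytokines, fell by 0.56, while the Notch target HES5 rose by 1.48 and the cytokine receptor CNTFR by 0.62. In 3DFusi against 2DCocu, 5 rose and 5 fell (median 0.03), near the shares of all genes (26.1% higher and 22.7% lower). In that comparison NFIX fell by 2.15 (adjusted p = 1.07e-10), NFIA by 0.90, SOX2 by 1.42 and NOTCH1 by 1.21, and HES5 rose by 1.17 and ID1 by 0.94.

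Of the genes that astrocytes raise on injury, those called were all lower. In 3DMono against 2DMono, 8 of 12 fell and 0 rose (median -1.40), where 20.4% of all genes passed as lower and 17.5% as higher. They included the protease inhibitors SERPINA3 (by 4.23) and TIMP1 (by 1.98), the membrane protein EMP1 (by 3.77), S100A10 (by 3.22), the oncostatin receptor OSMR (by 2.11) and the filament gene NES (by 1.58). SERPINA3 and TIMP1 entered the test through 2DMono, with 3DMono means of 0.2252 and 0.3255 CPM under the limit of 0.8195 CPM. In 3DFusi against 2DCocu, 5 of 12 fell and 0 rose (median -0.73), where 22.7% of all genes passed as lower and 26.1% as higher: S100A10 by 1.54, CD109 by 1.32, CHI3L1 by 1.12, OSMR by 0.87 and NES by 0.85. CHI3L1 was sparse, with means of 0.3376 CPM in 3DFusi and 0.7334 CPM in 2DCocu. Several genes of this list are also active in mesenchymal cells and progenitors, so the counts describe the cultures and not astrocytes alone.

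The share of cells with a count is a readout beside the summed level, and was compared after thinning each cell to 5000 counts. In 2DMono, 10.7% ± 2.02 of cells had GFAP (SD, n = 6 tags), against 1.16% ± 0.312 in 3DMono. The shares were 4.31% ± 0.949 against 0.421% ± 0.313 for ALDH1L1, 17.1% ± 5.63 against 3.47% ± 1.03 for GJA1, and 1.698% ± 0.436 against 0.431% ± 0.356 for S100B. SPARCL1 was found in 17.1% ± 3.53 of 2DMono cells and 8.45% ± 1.13 of 3DMono cells. All 5 differences reached the smallest p that the exact permutation test of tags within treatment allows, 0.009259 two-sided, and 0.01852 after adjustment over 16 tests. Those of AQP4 (0.476% against 0.114%, adjusted exact p = 0.09877), AGT (1.21% against 0.890%, 0.2559) and SLC1A2 (55.5% against 59.2%, 0.3647) did not pass.

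In 2DCocu, 19.0% ± 3.58 of cells had GFAP and 19.1% ± 6.30 had ALDH1L1 (SD, n = 12 tags), against 1.62% ± 0.379 and 0.724% ± 0.228 in 3DFusi (n = 10). Both reached the smallest p of the exact permutation test, 1.166e-05, or 9.329e-05 adjusted. SPARCL1 was found in 21.6% ± 3.94 of 2DCocu cells and 14.5% ± 4.60 of 3DFusi cells (adjusted exact p = 0.004416), although its summed level did not pass. For GJA1 the shares were 9.44% and 9.64% (adjusted exact p = 0.9242), and for S100B 1.02% and 1.81% (0.224). AGT (1.45% and 1.63%, adjusted exact p = 0.7511), SLC1A2 (42.5% and 47.5%, 0.3559) and AQP4 (0.217% and 0.162%, 0.459) did not pass either.

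For comparison, the same shares were taken in cells named neuron-like; whether their counts come from free RNA, mixed cells or the neurons themselves was not tested. In the largest cluster of 2-D cells, excitatory neuron-like cells with a median of 10068 counts, 2.32% of thinned cells had GFAP, 0.648% ALDH1L1, 1.35% GJA1 and 8.72% SPARCL1. In the excitatory neuron-like cluster of 3-D cells (median 13971 counts) the shares were 0.569%, 0.213%, 0.712% and 7.12%. The GFAP share of 2DMono and 2DCocu was several times that of neurons in the same cultures, while the SPARCL1 share of 3DMono was near that of neurons. Before thinning, 17.8% ± 4.88 of 2DMono cells and 28.3% ± 4.93 of 2DCocu cells had GFAP. Thinning kept 4586 of 4842 cells of 2DMono, 6745 of 6964 of 3DMono, 9888 of 10414 of 2DCocu and 9511 of 9765 of 3DFusi, the rest having fewer counts.

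**Figure D3:**
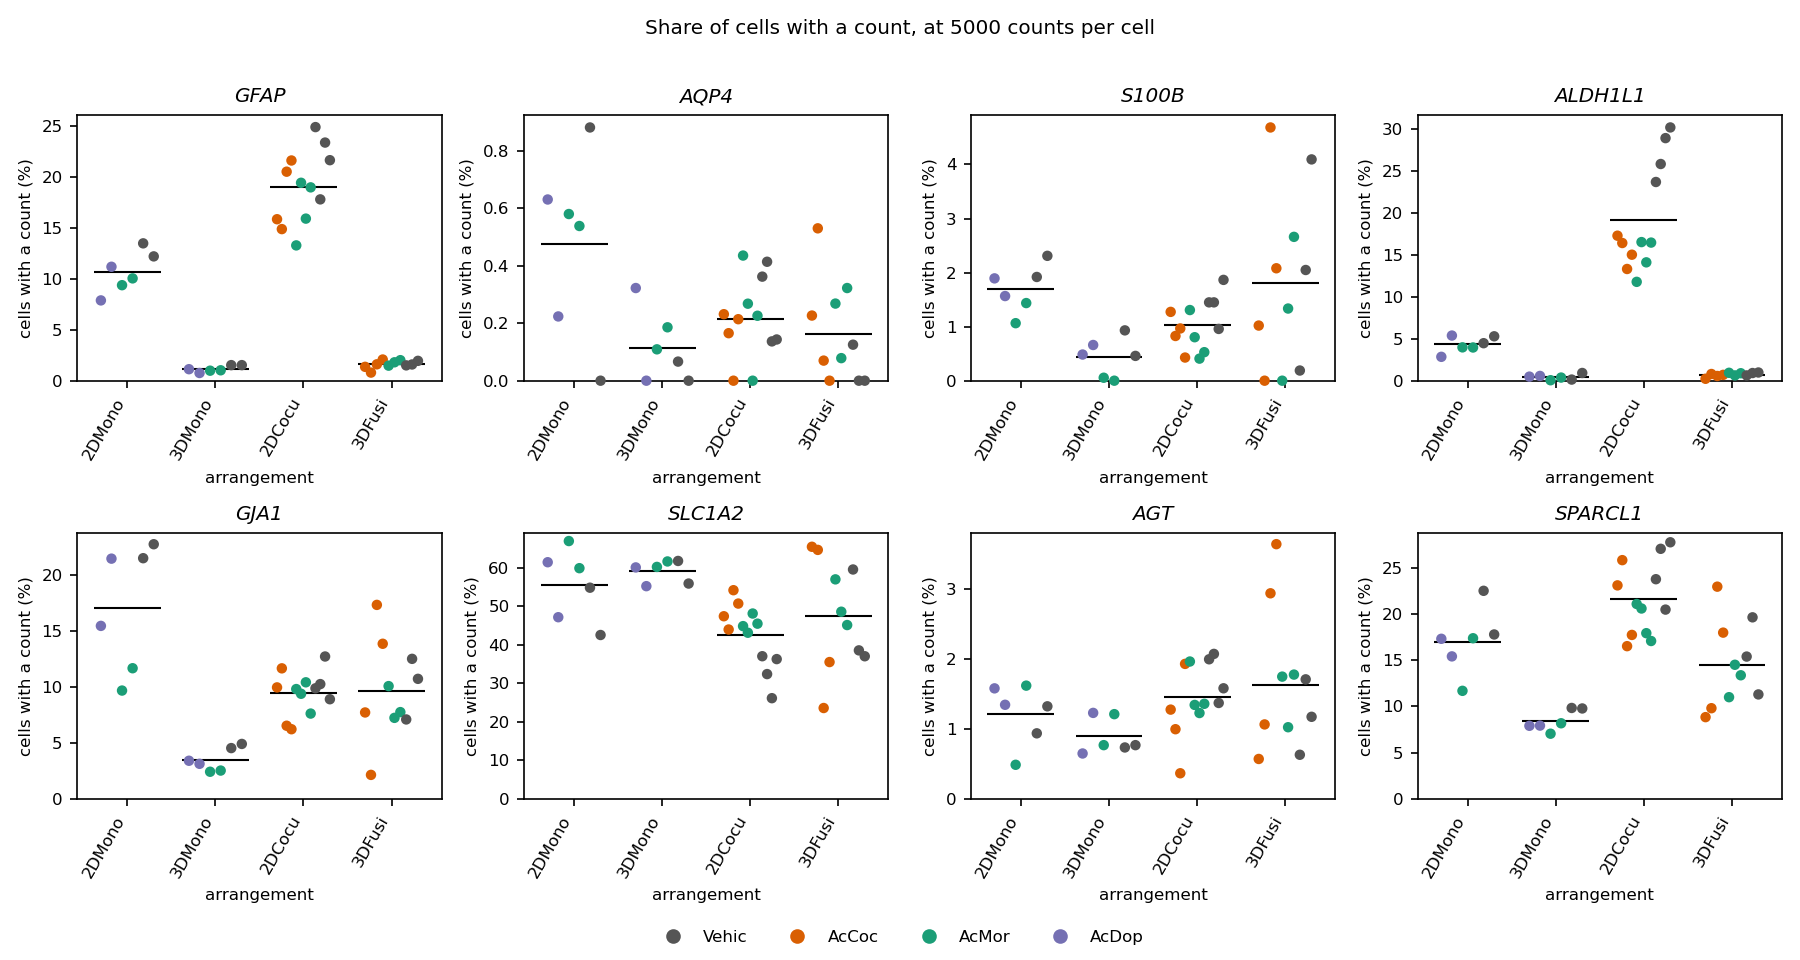
Percent of cells with a count of each gene after thinning every cell to 5000 counts, by arrangement; each point is a tag, coloured by treatment, and each line the mean over tags. Mean GFAP and ALDH1L1 shares are 19.0% and 19.1% in 2DCocu and at most 1.62% in 3DMono and 3DFusi, whereas mean SLC1A2 shares lie between 42.5% and 59.2%.

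Much of the GFAP message of 2DMono came from few cells. There, 184 cells with 10 or more GFAP counts, 3.8% of cells, held 70.5% of all GFAP counts, and the highest cell had 186.9. In 2DCocu, 167 cells (1.60%) held 26.4% of the GFAP counts. In 3DMono, 0 cells had 10 or more. For ALDH1L1 in 2DCocu, 229 cells (2.20%) held 33.9% of the counts, and for GJA1 in 2DMono, 296 cells (6.11%) held 65.2%. For SLC1A2, 14.6% of 2DMono, 13.4% of 3DMono, 5.28% of 2DCocu and 12% of 3DFusi cells had 10 or more counts and held 54.5%, 48.2%, 35.7% and 54.4% of its counts. The limit of 10 counts was not scaled to depth, and the deepest tag, 2DMono Vehic 1, gave 4908 of the GFAP counts of 2DMono, so these shares are not compared between arrangements.

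Co-detection in single cells was described as the number of thinned cells with counts of both genes, over the number expected if the genes were independent within each tag. It carries no test, since cells of a tag share their culture and their depth. Of 28 pairs in 4 arrangements, 75 had an expected number of 3 cells or more, and in 47 of these the observed number was higher than expected. The 4 highest ratios were all in 2DMono. GFAP and AQP4 met in 23 cells where 3.43 were expected (ratio 6.71), GFAP and ALDH1L1 in 100 where 23.0 were expected (4.35), S100B and ALDH1L1 in 13 where 3.32 were expected (3.92), and GFAP and S100B in 34 where 8.94 were expected (3.80). By tag, the ratio of GFAP and ALDH1L1 ran from 1.02 to 4.94 over the 5 tags with at least 1 expected cell. GFAP with AQP4, and S100B with ALDH1L1, reached 1 expected cell in 1 tag each and GFAP with S100B in 2, so these ratios rest on few tags.

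Seen from single genes, 79.3% of the 29 2DMono cells with AQP4 had GFAP, against 11.02% of cells without AQP4. Likewise, ALDH1L1 was found in 19.1% of 2DMono cells with GFAP and in 2.41% of those without it. GFAP and SPARCL1 met in 228 cells of 2DMono against 98.4 expected (2.32), and AQP4 and SPARCL1 in 20 against 5.56 (3.60). GFAP and GJA1 were closer to independence (1.45).

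In 2DCocu, where both genes were most frequent, GFAP and ALDH1L1 met in 795 cells against 378.5 expected (2.10), and the ratio lay between 1.72 and 2.83 in the 12 tags. There 42.0% of cells with GFAP had ALDH1L1, against 14.1% of the others. ALDH1L1 and SPARCL1 met in 680 cells against 434.3 (1.57). ALDH1L1 and GJA1 did not go together (0.92), so the cells that carried the enzyme were not enriched for the gap junction gene.

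In 3DFusi, 3 pairs with SPARCL1 had nearly the same ratio. GJA1 and SPARCL1 met in 312 cells against 158 expected (1.97, 1.63 to 2.62 over 9 tags), GFAP and SPARCL1 in 48 against 24.3 (1.98, 0.925 to 5.78 over 9 tags) and ALDH1L1 and SPARCL1 in 20 against 10.12 (1.98, 1.09 to 3.24 over 5 tags). In 3DMono, GJA1 and SPARCL1 met in 62 cells against 19.4 (3.20, 0.453 to 5.48 over 6 tags) and GFAP and SPARCL1 in 4 against 6.60. GJA1 and SLC1A2 were found together less often than expected in each of the 4 treated arrangements: 212 cells against 438.6 in 2DMono (0.48), 134 against 387.1 in 2DCocu (0.35), 216 against 397.7 in 3DFusi (0.54), and a ratio of 0.47 in 3DMono. S100B and SLC1A2 also met less often than expected in 3DFusi (0.43).

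Cells with 4 or more of the 8 genes were nearly confined to 2-D cultures with treatment tags. They numbered 110 of 4586 thinned cells in 2DMono (2.40%), 159 of 9888 in 2DCocu (1.61%) and 17 of 9511 in 3DFusi (0.179%). None was found among 6745 cells of 3DMono, which allows a share of up to 0.0445%. The arrangements without treatment added 5 more, 3 in 3DProto1For (0.154%) and 2 in 3DProto2Xia (0.0732%). No cell of the 4 treated arrangements had 7 or 8 of the genes, and 6 were found in 3 cells of 2DMono and 1 of 2DCocu. These limits cover counting error only.

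**Figure D4:**
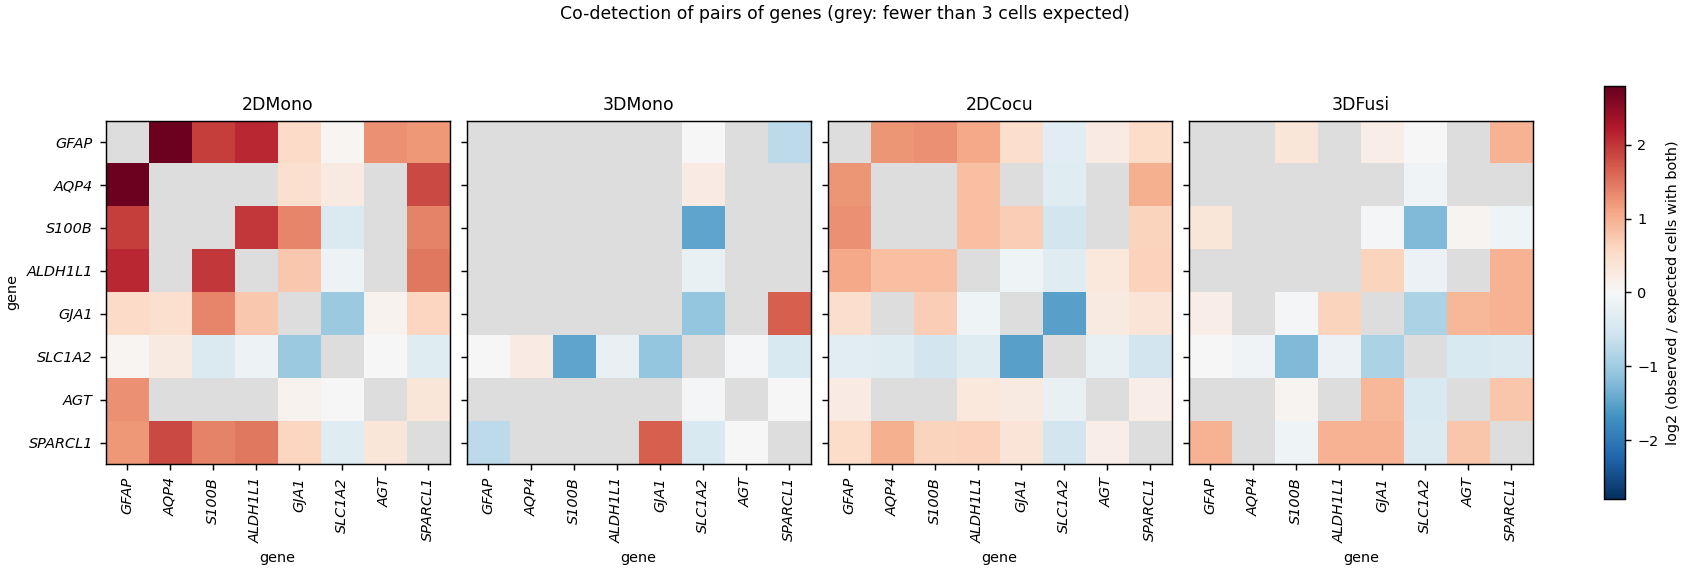
Ratio of observed to expected cells for each pair of genes in the 4 treated arrangements, after thinning; pairs with fewer than 3 expected cells are left blank. The highest ratio is 6.71, for GFAP with AQP4 in 2DMono, and GJA1 with SLC1A2 is below 1 in each panel.

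Cells were then clustered without the 8 genes or the astrocyte, gliogenic and reactive lists, which gave 31 clusters, so that levels by cluster do not follow from the clustering itself. Clusters were named from marker lists, with a rule set after their values were known, and clusters of 2-D cells and of 3-D cells were largely separate. Cluster 29, astrocyte-like with 327 cells, had the highest level of 4 of the 8 genes: GFAP (733 CPM), AQP4 (29.3 CPM), SLC1A2 (412 CPM) and SPARCL1 (409 CPM). The SLC1A2 lead was narrow, with 402 CPM in excitatory neuron-like cluster 19 and 401 CPM in GABAergic neuron-like cluster 21. SLC1A2 was found in 62.2% of thinned cells of cluster 29, 79.6% of cluster 19 and 74.8% of cluster 21. In cluster 29, GFAP was found in 76.5% of cells, ALDH1L1 was at 170 CPM and S100B at 23.2 CPM. Cluster 29 made up 4.79% of 2DMono cells and 0.903% of 2DCocu cells, held 0 cells of 3DMono, and 0.0102% of 3DFusi cells. It held 48.5% of the GFAP (24.4% to 62.8% by tag), 73.9% of the AQP4 (0% to 80.8%) and 39.3% of the ALDH1L1 counts of 2DMono (19.0% to 57.6%).

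Cluster 1, also astrocyte-like but with 3129 cells, was led by BMP6, CCN2 and HTRA1. GJA1 was at 163 CPM and SPARCL1 at 143 CPM there, with GFAP at 71.0 CPM and ALDH1L1 at 22.5 CPM. It made up 27.5% of 2DMono and 17.2% of 2DCocu cells but 0.0144% of 3DMono and 0.0205% of 3DFusi cells. It held 89.8% of the GJA1 (80.5% to 92.6% by tag), 67.0% of the S100B (40% to 82.9%) and 38.1% of the GFAP counts of 2DMono (21.8% to 50.7%). The pooled shares of both clusters lean on 2DMono Vehic 1, which held most 2DMono counts of each of these genes: 4908 of 6917 for GFAP, 7100 of 10362 for GJA1, 314.6 of 462.6 for S100B, 163.4 of 196.4 for AQP4 and 740.9 of 1299 for ALDH1L1. By 2DMono tag, cluster 1 made up 14.25% and 19.63% of cells with AcMor, 21.02% and 41.9% with AcDop, and 32.11% and 47.95% with Vehic. Summed mesenchymal markers were at 580.9 and 940.7, 876.7 and 1606, and 1027 and 1663 CPM in the same tags. Which cells these mesenchymal counts came from was not tested.

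Cluster 6, with 2238 cells, carried ALDH1L1. It made up 21.4% of 2DCocu cells and 0 of 2DMono and 3DMono, and no marker list named it. ALDH1L1 was at 253 CPM in 54.6% of its cells, GFAP at 157 CPM and GJA1 at 12.1 CPM. It held 63.6% of the ALDH1L1 (41.5% to 72.6% by tag), 45.1% of the GFAP (31.2% to 64.5%) and 52.9% of the AGT counts of 2DCocu (8.69% to 68.3%). A single 2DCocu cell held 9.53% of the AGT counts of the arrangement. A cycling-like cluster of the same arrangement (cluster 28, 348 cells) had ALDH1L1 at 175 CPM and GFAP at 114 CPM. Of the 291 cells with 4 or more of the 8 genes, 99 (34.0%) were in cluster 6, 91 (31.3%) in cluster 29 and 49 in cluster 1.

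In 3-D cultures the counts of the same genes came from other clusters. Cluster 3, mesenchymal-like and led by COL3A1, IGF2 and OGN, was 17.2% of 3DFusi cells and held 59.4% of its GJA1 (9.32% to 74.4% by tag) and 40.5% of its AGT counts (0% to 75.5%), as well as 65.1% of the GJA1 counts of 3DMono (21.7% to 80.8%). Cluster 30, mesenchymal-like with the cartilage genes COL2A1 and ACAN among its leading genes, had 266 cells and S100B at 76.3 CPM in 31.5% of them. It held 39.0% of the S100B counts of 3DFusi (0% to 67.8% by tag) and 24.6% of those of 3DMono (0% to 78.8%), and 151 of its cells were from 3DFusi AcCoc 3. Cluster 9, ciliated or ependymal-like (7.59% of 3DFusi cells), held 38% of the GFAP (0% to 62.0% by tag), 34.8% of the AQP4 (0% to 100%) and 33.1% of the AGT counts of 3DFusi (0% to 58.3%), with SPARCL1 at 188 CPM.

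In 3DMono, 35.8% of the GFAP counts were in radial glia-like cluster 8 (9.58% to 54.4% by tag), where GFAP was at 7.80 CPM, and 36.9% of the SPARCL1 counts in choroid plexus-like cluster 13 (20.5% to 51.3%). SLC1A2 was found throughout: it was at 326 CPM in the excitatory neuron-like cells of 2-D cultures (cluster 0) and at 357 CPM in those of 3-D cultures (cluster 2), but at 55.2 CPM in astrocyte-like cluster 1. Cluster 0 alone held 39.9% of the SLC1A2 counts of 2DMono (31.6% to 49.7% by tag). As shares of cells in thinned data, SLC1A2 was found in 70.3% of cluster 0, 76.0% of cluster 2 and 12.8% of cluster 1.

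**Figure D5:**
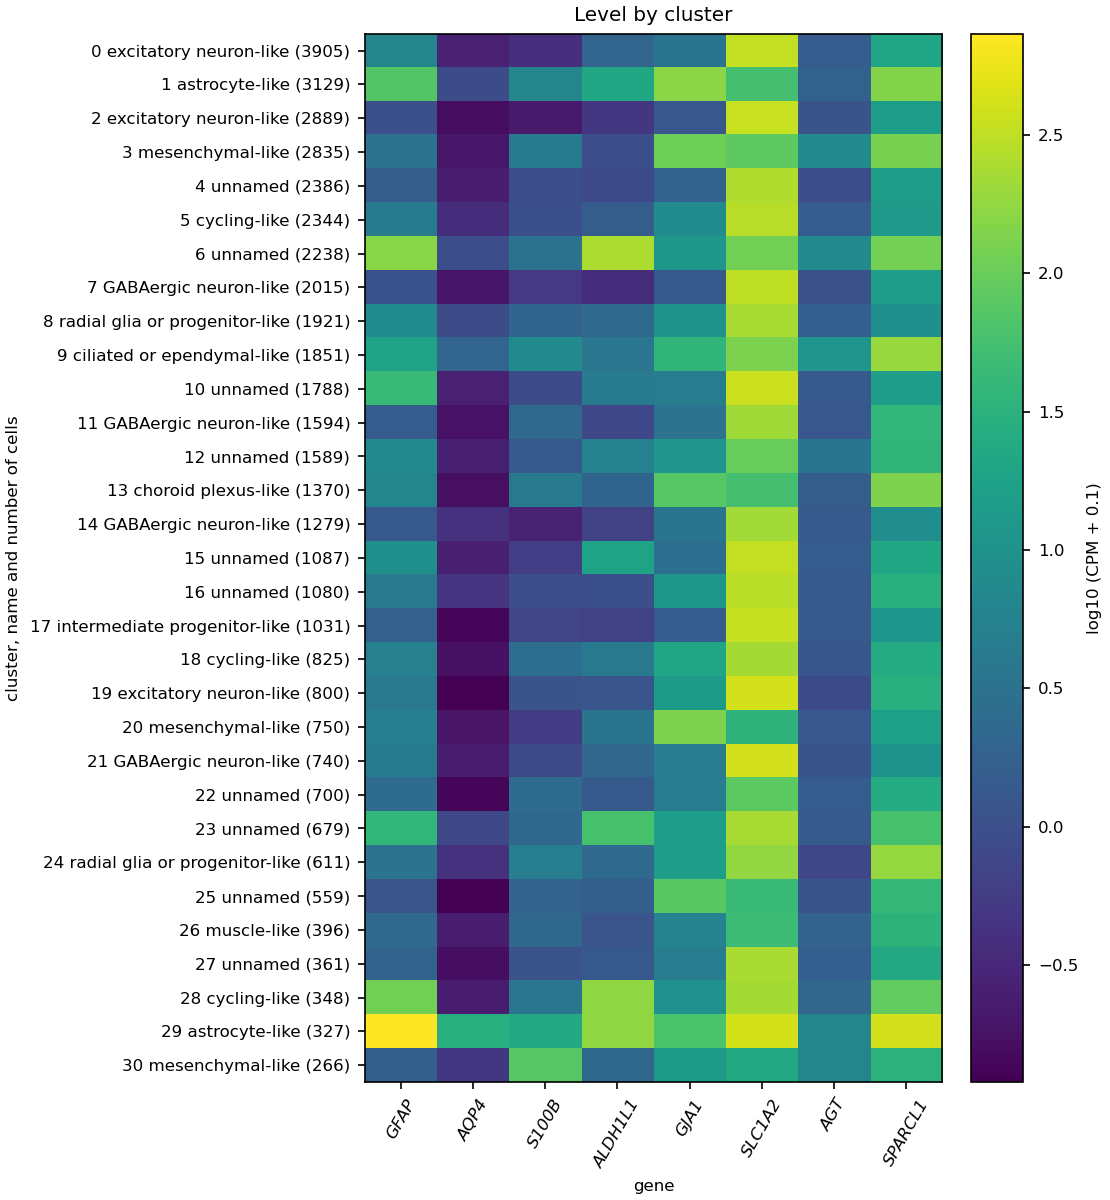
Level of each of the 8 genes in each of the 31 clusters (colour, log10 of CPM plus 0.1; rows are clusters with their name and number of cells). Cluster 29 is high for GFAP, AQP4, SLC1A2 and SPARCL1 at once, cluster 6 for ALDH1L1, cluster 30 for S100B, and SLC1A2 is high in the neuron-like clusters.

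Treatments were compared within each arrangement, and the comparisons of an arrangement share their Vehic tags. In 2DCocu, SLC1A2 was at 203.5, 191.1, 223.7 and 211.1 CPM in the 4 AcCoc tags and at 158.9, 133.0, 116.2 and 200.8 CPM in the 4 Vehic tags. The AcCoc tags were higher apart from an overlap with Vehic 4. SLC1A2 rose by 0.49 on the log2 scale (SE 0.13, adjusted p = 0.03406), the only call among 7 genes tested, where 6.1% of all 21032 genes passed, 3.6% as higher and 2.5% as lower. The call was lost without AcCoc 3 (0.43, adjusted p = 0.1235), AcCoc 4 (0.48, 0.06762), Vehic 1 (0.49, 0.07592), Vehic 2 (0.40, 0.1005) or Vehic 3 (0.39, 0.124). It was lost too when only the 2 treatments were fitted (0.48, adjusted p = 0.07345) and in 1 fit over 4 arrangements (0.48, adjusted p = 0.535). In the same comparison 6 of 8 excitatory neuron markers rose (median 1.29), and their part in this result was not tested.

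ALDH1L1 was lower in the treated tags of 2DCocu. It was at 90.2, 90.6, 108.6 and 122.8 CPM in the Vehic tags, at 47.8, 59.8, 59.3 and 72.5 CPM in the AcMor tags and at 85.5, 77.3, 57.6 and 65.8 CPM in the AcCoc tags, so neither treated group overlapped with Vehic. In 5.89% of all genes tested every AcMor tag was below every Vehic tag, and in 6.78% every AcCoc tag was. With AcMor it fell by 0.72 (SE 0.16, adjusted p = 0.04422), the only call among 7 genes, where 0.975% of all genes passed, 0.29% as lower and 0.685% as higher. Without AcMor 1, 2 or 3, or Vehic 1, 3 or 4, the change lay between -0.80 and -0.61 and the adjusted p between 0.05188 and 0.1518. In 1 fit over 4 arrangements ALDH1L1 did not pass either (-0.75, adjusted p = 0.6662). In the AcMor comparison 3 of 8 excitatory neuron markers rose (median 0.90), and their part in this result was not tested. With AcCoc the change was -0.49 (SE 0.159, adjusted p = 0.07366). It passed without AcCoc 1 at -0.60 (adjusted p = 0.04684) and in another tool, DESeq2, at -0.50 (adjusted p = 0.04074).

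Beside this change, the share of cells in ALDH1L1-rich cluster 6 was 31.9% ± 3.44 in Vehic, 15.0% ± 1.89 in AcCoc and 15.8% ± 1.60 in AcMor (SD, n = 4 tags each). Within the cluster ALDH1L1 was at 256 ± 37.3, 289 ± 18.6 and 209 ± 49.9 CPM in the same order; both treated groups overlapped with Vehic, but the AcCoc tags (263.2 to 303.4 CPM) lay above the AcMor tags (144.9 to 253 CPM). These values are a description, and the part of the cluster share in the ALDH1L1 result was not tested. GFAP, which the same cluster carried, was at 79.7, 47.4, 68.9 and 65.3 CPM in Vehic, 58.1, 50.1, 88.0 and 110.8 CPM in AcCoc and 34.8, 72.3, 52.5 and 84.5 CPM in AcMor. Its changes of 0.27 with AcCoc (SE 0.308, adjusted p = 0.6657) and -0.02 with AcMor (SE 0.308, adjusted p = 0.9919) did not pass.

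Shares of thinned cells were set beside these levels. ALDH1L1 was found in 23.6% to 30.1% of cells in the Vehic tags of 2DCocu, in 13.3% to 17.25% in the AcCoc tags and in 11.8% to 16.5% in the AcMor tags. For SLC1A2, whose summed levels overlapped between Vehic and both treated groups, the shares were 26.1% to 37.05% in Vehic, 44.0% to 54.2% in AcCoc and 43.2% to 48.2% in AcMor. These shares were not tested by treatment, since the test over shares was set for the formats.

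With AcMor in 2DCocu, SLC1A2 was at 171.4, 180.0, 192.2 and 178.1 CPM, a change of 0.29 (SE 0.13, adjusted p = 0.3088) that passed without Vehic 4 (0.46, adjusted p = 0.0345). Of the other lists, the NFI factor NFIB rose by 0.59 with AcCoc (adjusted p = 0.005515) and CD109 fell by 0.61 (adjusted p = 0.04226). No other gene of the astrocyte, gliogenic or reactive lists passed with AcCoc, where 6.1% of all genes passed. With AcMor no gene of these lists passed, where 0.975% of all genes did, so few would be called at that share. GJA1, S100B, AGT and SPARCL1 did not pass with either treatment in 2DCocu.

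In the remaining 6 treatment comparisons, AcCoc and AcMor in 3DFusi and AcDop and AcMor in 2DMono and in 3DMono, 0% of genes passed edgeR's quasi-likelihood test, and so none of the 8. Genes at an unadjusted p under 0.05 numbered 394 and 177 in 3DFusi, 468 (AcDop) and 1246 (AcMor) in 2DMono, and 741 (AcDop) and 1925 (AcMor) in 3DMono. DESeq2 called 1, 0, 13, 19, 17 and 174 genes in the same order. The groups compared held 2 to 4 tags, and the main fits held no term for the tag number. With a replicate block for that number, 0 genes passed for AcCoc and 0 for AcMor in 3DFusi.

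In the comparisons of AcMor in 2DMono and 3DMono, GJA1, S100B and SPARCL1 passed only when genes with low counts were kept in the fit, and their values are given for that reason. GJA1 was at 50.6 and 60.7 CPM in the 2DMono AcMor tags and at 120.8 and 92.0 CPM in the Vehic tags, a log2 fold change of -0.998 (SE 0.216, adjusted p = 0.7643). The share of cells in GJA1-rich cluster 1 was 14.3% and 19.6% in those AcMor tags and 32.1% and 48.0% in the Vehic tags. In 3DMono, S100B was at 0.591 and 0.507 CPM with AcMor and at 2.47 and 3.29 CPM with Vehic (-2.23, SE 0.41, adjusted p = 0.2563), and SPARCL1 at 22.0 and 22.6 CPM against 63.8 and 36.2 CPM (-1.08, SE 0.329, adjusted p = 0.4332). In these main fits, with 2 tags against 2, none of the differences passed. With low-count genes kept in edgeR's test, the adjusted p was 0.001036 for GJA1, 0.003888 for S100B and 0.001434 for SPARCL1, so the calls depend on that choice.

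Across the 46 tags, GFAP and ALDH1L1 had the most alike pattern among the 8, with a Pearson correlation of 0.93 of their log2 levels. GJA1 and SPARCL1 followed at 0.604 and GFAP and AQP4 at 0.536, while SLC1A2 and AGT ran opposite at -0.488. These correlations are descriptions over tags that share their line, their pool and, within an arrangement, their culture format. Among 26173 genes, the 3 nearest to GFAP were GDA (0.934), PMEPA1 (0.931) and ALDH1L1, and the nearest to ALDH1L1 were PMEPA1 (0.94), TPST2 (0.935) and HRH1 (0.935).

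GJA1 was nearest to CLU (0.879), CCN2 (0.879) and LRATD2 (0.865), and SPARCL1 to TMEM132C (0.827), VIM (0.825) and IGFBP5 (0.796). SLC1A2 was nearest to LINC01572 (0.908), RALGAPA2 (0.888) and PTPRZ1 (0.885). The sparse genes had looser neighbours: AQP4 was nearest to C3orf70 (0.81), ATP13A4 (0.755) and LRGUK (0.747), S100B to PYGL (0.726), GLIPR1 (0.715) and FHIP1A (0.709), and AGT to NFATC2 (0.725), COL16A1 (0.724) and HAUS7 (0.715).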

How the data were processed

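The authors deposited 1 matrix of expected counts per gene and cell, made with software that, per the submitters' processing notes, included Salmon 1.7.0, alevin and Seurat 4.1.1 on hg38, with no role or order given. Of its entries, 54.31% were whole numbers. The treatment of multi-mapping reads is not given in the sources used here. All columns of values were used. Counts were summed per tag, rounded to whole numbers and fitted in edgeR 4.0.16 (R 4.3.3, limma 3.58.1) with TMM scaling, filterByExpr and the robust quasi-likelihood test, and p-values were adjusted over all genes tested by Benjamini-Hochberg at 0.05. Format fits held the tags of 2 arrangements with treatment as a term; treatment fits held all tags of an arrangement. On simulated counts for 3DMono against 2DMono (21437 genes), 200 of 200 changed genes were recovered and 6 unchanged genes were called. The changed genes had more than 200 counts each and all genes were given the same spread, so sparser or more variable genes were not covered.

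For shares and co-detection, cells were thinned to 5000 counts (seed 0), and an entry of at least 0.5 counted as present. Cells were clustered by Leiden on 30 principal components of 2000 variable genes, with 20 neighbours and resolution 0.8 (Python 3.11.15 with scanpy 1.11.5, leidenalg 0.10.2, scipy 1.17.1 and numpy 2.4.6). A doublet score called 1124 cells (2.572%), which were kept. A cluster took a list's name with at least 3 markers and 40% of the list found in 10% of its cells at a 2-fold higher level.

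The 8 genes, the gene lists and the marker lists were chosen with earlier results of these data known. Named genes are the 8, for each the 3 nearest by correlation, and up to 6 called genes of each list with the largest changes. In 3DFusi, tags with the same number deviated together (9 pairs, correlation 0.123 to 0.531). The main fits and the permutation test still held no term for the number, which entered in the replicate block alone. Alternatives were another tool (DESeq2 1.42.0), no filter on low counts, 1 fit over all arrangements, only the 2 treatments compared, Vehic tags alone, a replicate block, each tag left out, unthinned cells, a higher entry, resolution 0.4 and, chosen after seeing the data, doublets removed.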

Additional observations from a re-analysis of the deposited data

Results flagged for a closer look

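The change from the 2-D to the 3-D arrangement differed between the pair of 3DFusi and 2DCocu and the Mono pair for GJA1 and S100B. This is by edgeR's test of the difference itself, where 6.68% of all genes passed. The genes counted are GFAP, S100B, GJA1, SLC1A2, AGT and SPARCL1, which passed the filter on low counts in each arrangement. AQP4, which entered the fit through 2DMono, and ALDH1L1, low in the 3DMono Vehic and AcMor tags, are given as values and not counted. The log2 difference was 2.674 for GJA1 (adjusted p = 0.0003849), 2.944 for AQP4 (0.03954), 2.614 for S100B (0.04085) and -1.091 for ALDH1L1 (0.03905). For GJA1 it lay between 2.39 and 3.06 when any of 22 tags was left out. With 1 tag left out, the other 3 calls often failed. ALDH1L1 lay between -1.30 and -0.90 and failed in 11 of 22 fits, AQP4 lay between 1.29 and 4.96 and passed in 9, and S100B, whose 3DFusi tags differ by number, lay between 2.11 and 2.85 and passed in 5. Of the groups by arrangement and treatment, 2DCocu AcCoc, AcMor and Vehic and 3DFusi AcCoc had enough tags (4 each) to look for a tag far from the others. None was found for the 8 genes in these groups, 32 sets of values, where chance would give about 1 in 20 sets.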

How the results depend on the processing

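Of 1573 recomputed values for single genes, 1491 kept their side of the threshold, 60 no longer passed and 22 newly passed. Of the values that passed in either fit, 0 changed direction. Values that passed in neither could change sign, as S100B with AcCoc in 3DFusi did (-1.05 to 0.926 with 1 tag left out). For the number of the 8 genes called, AQP4 and ALDH1L1 included, Vehic tags alone gave 3 in 3DMono against 2DMono and 1 for the difference between the pairs. For AcCoc in 2DCocu, DESeq2 gave 2, 1 fit over 4 arrangements 0 and only the 2 treatments 0. For AcMor in 2DCocu, 1 fit over 4 arrangements gave 0 and the replicate block 0 (ALDH1L1 -0.74, adjusted p = 0.07247). With no filter on low counts, AcMor gave 1 in 2DMono (GJA1) and 2 in 3DMono (S100B and SPARCL1). Leaving out 1 tag gave 6 to 6 in 3DMono against 2DMono, 2 to 4 in 3DFusi against 2DCocu, 1 to 4 for the difference between the pairs, 0 to 2 for AcCoc and 0 to 1 for AcMor in 2DCocu, and 0 to 0 in the other treatment comparisons. For shares of cells it gave 5 to 6 in the Mono pair and 3 to 4 in the other. DESeq2 called S100B in 3DFusi against 2DCocu (0.94, adjusted p = 0.04005), as did 1 fit over 4 arrangements (0.95, 0.03388). The causes were not tested.

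Unthinned, 76 pair values were above 1 (of 97 with enough expected cells), against 47 of 75 thinned; an entry of at least 1 gave 38 of 65, and removal of doublets 45 of 74. Unthinned shares passed for AQP4 in the Mono pair (difference of -0.968 percentage points, adjusted exact p = 0.01646) and for AGT in the other (1.61, 0.0176). At resolution 0.4 (22 clusters) the cluster highest in GFAP (714.5 CPM) was also highest in AQP4 and SPARCL1. It did not lead SLC1A2, which was at 419.6 CPM there and at 474.3 CPM in an excitatory neuron-like cluster. The SLC1A2 lead of cluster 29 thus depended on the resolution.

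Over all genes, Vehic tags alone called 3247 (against 8298) in the Mono pair, 6020 (against 10985) in the other and 482 (against 1656) for the difference. For AcCoc in 2DCocu, DESeq2 called 2006, 1 fit over 4 arrangements 0 and only the 2 treatments 770, against 1283. For AcMor there, no filter called 392, DESeq2 685, 1 fit 0, only the 2 treatments 345 and the replicate block 43, against 205. Where 0 genes were called, no filter called 38 (AcDop) and 188 (AcMor) in 2DMono and 145 and 746 in 3DMono, 1 fit called 3 for AcCoc in 3DFusi and 2 for AcDop in 3DMono, and the block 36 for AcMor in 3DMono. Tags with the same number did not deviate together in 2DCocu (12 pairs, correlation -0.196 to 0.0761) or 2DMono (-0.0808 to 0.0488). In 3DMono all 6 pairs were positive, though weakly so (correlation 0.0452 to 0.191, mean 0.122). With 2 tags per treatment, different numbers give the same values with the sign reversed, so they offer no contrast. In 2DCocu and 2DMono the block rests on numbers alone. Whether 3DMono tags with the same number belong together was not tested. In 3DFusi the block changed no call of the 8 genes. Depth limits the sparse genes: AQP4 had 0.286 to 4.57 and ALDH1L1 7.5 to 21.0 counts per 3DMono tag.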
